A study of Mus musculus with 6 samples.

Results

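The regions described here are the sites of Foxa2 binding called in mouse prostate, labelled as tumor cells, after 6 months of tamoxifen at which no Foxa1 region was called, neither at 2 weeks nor at 6 months. They were taken from the Foxa2 peak list of 6 months, on the chromosomes 1 to 19, as the regions that shared not a single base with any region of either Foxa1 list. They were thus chosen by the authors' region calls of 3 libraries, read as overlap or none. There were 7935 of them among 34729 Foxa2 regions, 22.8% (exact Clopper-Pearson 95% interval 22.4 to 23.3%), and they are called Foxa2-alone regions below. Absence of Foxa1 is what chose them and is therefore no result. It means that no Foxa1 region passed the caller's threshold there, not that Foxa1 was shown to be missing.

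The series profiled Foxa1 and Foxa2 by chromatin immunoprecipitation and sequencing in C57BL/6 mice during progression of prostate cancer, with tamoxifen given for 2 weeks or for 6 months. It holds 6 libraries in 6 groups of 1: Foxa1, Foxa2 and input chromatin at each time. Input was not analysed here. All groups carry the tamoxifen treatment, and the labels give no genotype, allele, promoter driving a Cre, or age. The protocol names 3 prostates minced and fixed together, so a library averages over animals and over every cell type in the dissected gland. With 1 library per group, no difference between factors or times has a replicate check, no p-value is given, and intervals cover counting error only.

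Foxa1 and Foxa2 are pioneer transcription factors of the forkhead family. Both carry a winged-helix DNA-binding domain that can contact its motif on nucleosomal DNA, and both read nearly the same core sequence. Foxa1 is made throughout the luminal prostate epithelium and works with the androgen receptor, whereas Foxa2 is found in the budding prostate and is known as a marker of neuroendocrine prostate tumors.

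A small number of Foxa2-alone regions lay on annotated promoters, where RefSeq sequence (GRCm38.p6, the coordinates of mm10) allowed the DNA itself to be read. Of 31396 promoter windows, each running from 250 bases before to 50 bases after a gene's start, 71 windows of 68 genes were touched by 67 Foxa2-alone regions. They belonged to 34 protein-coding and 34 lncRNA genes. The forkhead core was searched on both strands in 3 spellings, namely TGTTTAC, then TGTTTGC and also TATTTAC, which differ by letters within the core and cannot match at the same place. Whole windows of 3 genes are shown first because they carry some of the strongest Foxa2-alone regions at promoters and differ in motif content. Capitals mark a forkhead core, read on either strand, so that GTAAACA is the reverse strand of the first spelling, GCAAACA of the next and GTAAATA of the last. Each line runs 5′ to 3′ in the direction of the gene.
Gm34320, chr1:168731497-168731796, minus strand: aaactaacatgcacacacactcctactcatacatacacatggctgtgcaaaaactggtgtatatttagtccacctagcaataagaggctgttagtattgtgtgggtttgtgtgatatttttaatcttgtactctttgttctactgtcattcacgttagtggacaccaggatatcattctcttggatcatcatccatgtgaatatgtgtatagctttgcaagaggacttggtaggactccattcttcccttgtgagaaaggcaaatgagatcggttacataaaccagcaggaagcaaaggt
Slitrk6, chr14:110755100-110755399, minus strand: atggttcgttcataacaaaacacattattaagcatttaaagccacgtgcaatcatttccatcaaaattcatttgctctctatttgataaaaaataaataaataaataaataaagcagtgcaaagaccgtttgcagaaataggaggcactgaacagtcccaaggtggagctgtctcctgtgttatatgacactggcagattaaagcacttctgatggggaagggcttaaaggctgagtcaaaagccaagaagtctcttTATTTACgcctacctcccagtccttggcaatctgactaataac
Sox5, chr6:143947057-143947356, minus strand: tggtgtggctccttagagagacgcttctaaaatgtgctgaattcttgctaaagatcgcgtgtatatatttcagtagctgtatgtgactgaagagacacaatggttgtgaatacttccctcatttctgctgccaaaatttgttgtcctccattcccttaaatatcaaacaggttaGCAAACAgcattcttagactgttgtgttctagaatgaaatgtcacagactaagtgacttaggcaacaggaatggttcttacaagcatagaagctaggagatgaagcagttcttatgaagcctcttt

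The region over the lncRNA gene Gm34320 (chr1:168731393-168731838) covered all 300 bases of its window, with a fold enrichment of 4.37 and a -log10 q of 7.82, and none of the 3 spellings occurs in it. Fold enrichment is the authors' ratio of signal at the summit to the caller's local background, and -log10 q is their significance value for the region. At Slitrk6, which encodes a transmembrane protein that promotes neurite growth and synapse formation, the region (chr14:110754993-110755157; fold 4.38, -log10 q 6.15) covered bases 243 to 300. The core there, at base 258, lies within the covered part. At Sox5, an HMG-box transcription factor gene, the region (chr6:143947164-143947333; fold 4.17, -log10 q 5.47) covered bases 24 to 193, with a core at base 175. The summits lay 152, 41 and 142 bases from the annotated starts of the 3 windows. The Sox5 window lies inside the gene body (chr6:143828425-144782287), so this start is not the outer 5′ end of the gene.

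The spelling TGTTTAC, the usual forkhead consensus, occurred inside the covered stretch of 6 Foxa2-alone regions. Their covered stretches are shown in order of decreasing region strength, again with the forkhead cores in capitals.
Bbc3, chr7:16310011-16310120, plus strand: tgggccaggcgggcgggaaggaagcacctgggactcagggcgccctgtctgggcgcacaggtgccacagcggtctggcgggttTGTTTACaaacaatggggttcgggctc
E330035G20Rik, chr12:112405818-112406005, minus strand: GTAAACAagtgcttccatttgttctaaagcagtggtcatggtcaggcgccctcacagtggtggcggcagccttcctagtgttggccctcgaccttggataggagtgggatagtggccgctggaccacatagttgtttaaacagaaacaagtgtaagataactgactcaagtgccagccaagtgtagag
Rabggtb, chr3:153911141-153911217, minus strand: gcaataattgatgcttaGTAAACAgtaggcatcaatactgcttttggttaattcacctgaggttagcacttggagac
Mgat4c, chr10:102158890-102159128, plus strand: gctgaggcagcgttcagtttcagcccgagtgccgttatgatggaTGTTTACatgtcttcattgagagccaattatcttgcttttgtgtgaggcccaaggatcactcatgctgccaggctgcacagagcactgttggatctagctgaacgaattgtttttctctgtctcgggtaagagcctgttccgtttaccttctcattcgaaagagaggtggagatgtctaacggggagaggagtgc
Nme6, chr9:109832578-109832843, plus strand: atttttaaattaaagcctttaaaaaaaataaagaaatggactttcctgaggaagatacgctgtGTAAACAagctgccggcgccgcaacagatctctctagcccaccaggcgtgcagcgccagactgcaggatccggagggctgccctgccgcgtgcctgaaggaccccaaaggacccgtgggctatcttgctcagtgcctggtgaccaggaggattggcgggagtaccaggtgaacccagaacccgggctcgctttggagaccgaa
Zup1, chr10:33951340-33951509, minus strand: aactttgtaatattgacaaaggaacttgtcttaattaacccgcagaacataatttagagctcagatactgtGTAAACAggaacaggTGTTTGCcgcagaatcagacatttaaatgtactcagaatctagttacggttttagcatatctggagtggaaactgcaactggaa

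Bbc3 encodes the pro-apoptotic protein PUMA, Rabggtb a subunit of the enzyme that attaches lipid anchors to Rab proteins, Mgat4c a glycosyltransferase, Nme6 a nucleoside diphosphate kinase and Zup1 a ubiquitin peptidase. Region strength fell from a -log10 q of 5.47 at Bbc3 to 2.47 at Zup1, whose stretch holds 2 cores. At Nme6 the summit lay 5 bases from an annotated start of the gene.

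Over the whole 71 windows, 10 held TGTTTAC, 14.1% (6.97 to 24.4%), against 3.71% of all 31396 windows. TGTTTGC stood in 8 windows, 11.3% (4.99 to 21.0%) against 5.09% of all windows. TATTTAC stood in 5, 7.04% (2.33 to 15.7%) against 3.08%. For both of these spellings the interval included the share of all windows. Any of the 3 spellings stood in 21 windows, 29.6% (19.3 to 41.6%), against 11.3% of all windows. In 13 windows the core lay within the stretch that the region covered, which had a median of 139 bases. Promoter windows under other Foxa2 regions had forkhead cores at a share of 37.3% (30.6 to 44.3%; 204 windows) where Foxa1 was listed at 6 months only. The share was 36.0% (31.5 to 40.6%; 442 windows) with Foxa1 at both times and 33.3% (21.4 to 47.1%; 57 windows) with Foxa1 at 2 weeks only. The interval of the Foxa2-alone windows overlapped all of these, so a difference from them was not detectable with 71 windows.

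Other motifs moved less evenly. The SOX core ACAAAG, which can share letters with the end of a forkhead core, stood in 21 of the 71 windows, 29.6% (19.3 to 41.6%), against 18.6% of all windows. Its share was 38.7% (32.0 to 45.8%) under Foxa2 regions with Foxa1 at 6 months only, 84 of 442 windows with Foxa1 at both times and 12.3% with Foxa1 at 2 weeks only. The ETS core CCGGAAGT was found in 0 of the 71 windows, which allows a share of up to 5.06% and is therefore compatible with the 3.95% of all windows. Windows of the Foxa2-alone regions had a median GC content of 51.0%, against 53.0% over all windows. A match in these letters is a description of the sequence, and binding to it was not measured.

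Foxa2-alone regions were weak and narrow members of the Foxa2 list. Their fold enrichment had a median of 3.31, from 1.77 to 6.67, and their -log10 q a median of 3.01, from 1.32 to 14.9. Only 964 of them (12.1%) reached a -log10 q of 5, and 12 (0.151%) reached 10. The median -log10 q was 3.33 for Foxa2 regions with Foxa1 at 2 weeks only, 4.82 with Foxa1 at 6 months only and 6.86 with Foxa1 at both times. Foxa2-alone regions had a median width of 213 bp and covered 1.92 Mb in all. The other 3 classes had median widths of 226, 394 and 589 bp in the same order. Foxa2 regions with Foxa1 at 2 weeks only, 2579 in number, were thus close to the Foxa2-alone regions in strength and width, while the 14025 with Foxa1 at 6 months only and the 10190 with Foxa1 at both times were stronger and broader.

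The share of Foxa2-alone regions grew in every step when the Foxa2 list was cut into 10 equal parts by -log10 q. It was 2 of 3473 regions, 0.0576%, in the strongest, 21.6% in the fifth and 45.9% (44.3 to 47.6%) in the weakest. Both quantities come from the calls that chose the regions, so this is a description of the class and not a test.

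**Figure D1:**
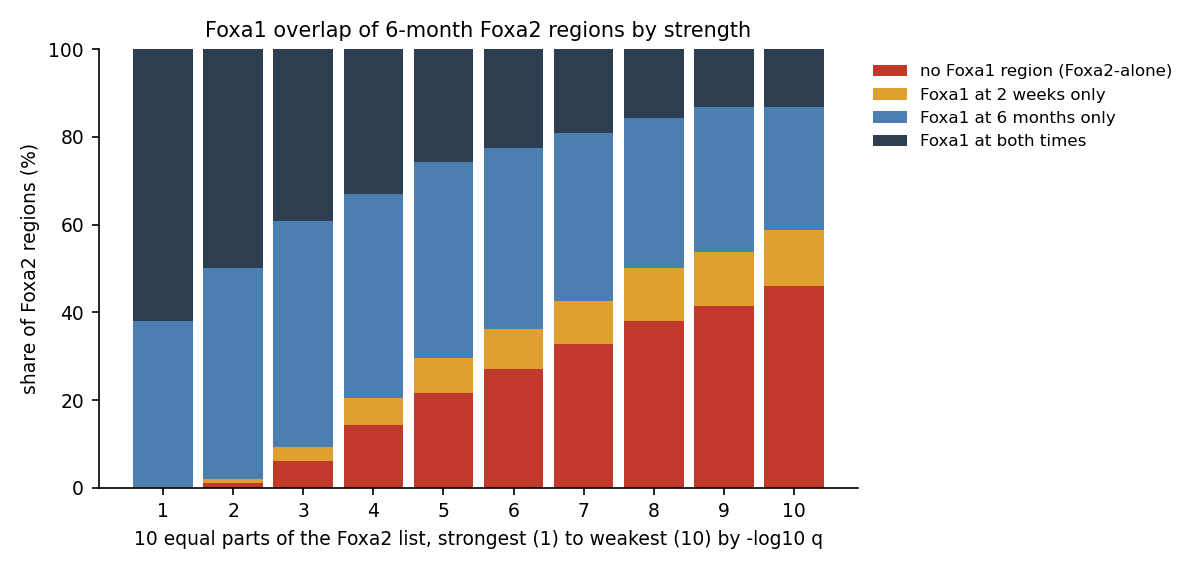
Stacked bars show, for 10 equal parts of the 6-month Foxa2 list ranked by -log10 q (x axis, strongest at 1), the percentage of regions with no Foxa1 region, with Foxa1 at 2 weeks only, at 6 months only and at both times (y axis). The share without Foxa1 rises from 0.0576% to 45.9% while the share with Foxa1 at both times falls.

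In part of the list the authors' values can be turned back into fragment numbers, because fold and p-value together fix the height of the pile of fragments at the summit when the local background is the library's flat level. Under that reading, 3530 Foxa2-alone regions (44.5%) stood on whole fragments, within a tolerance of 0.02 fragments. These regions had a median of 16 overlapping fragments, with quartiles of 14 and 17 and a range of 12 to 31, above a background of 3.79 fragments. The medians were 16, 19 and 22 fragments in Foxa2 regions with Foxa1 at 2 weeks only, at 6 months only and at both times. The lowest pile was 12 fragments among the 15450 Foxa2 regions (44.5%) whose piles could be recovered.

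Among the 10 strongest Foxa2-alone regions, 7 could be assigned to a protein-coding gene, and 6 of these are described here. The strongest (chr10:106434889-106435074; fold 6.67, -log10 q 14.9) lay 34.5 kb from Ppfia2, which encodes a liprin scaffold of the presynaptic active zone, with Foxa1 regions 5.50 kb away at 2 weeks and 18.5 kb away at 6 months. Another lay in Dpyd, the gene of the enzyme that begins pyrimidine breakdown (chr3:118991781-118992086; fold 5.50, -log10 q 14.3), where the nearest Foxa1 region was 94.6 kb away. In Rcor3, which encodes a corepressor of the CoREST family (chr1:192110542-192110920; fold 6.26, -log10 q 13.1), the region was the gene's sole Foxa2 region, and the nearest Foxa1 region was 32.5 kb away. Regions in the potassium channel gene Kcnq5 (chr1:21960334-21960648), in Map2, which encodes a neuronal microtubule protein (chr1:66264795-66265007), and 35.3 kb from Minpp1 (chr19:32550441-32550999) each had a -log10 q of 11.5. The other 3, on the chromosomes 12, 2 and 3 with a -log10 q of 10.7 each, had no protein-coding gene within 100 kb.

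Many Foxa2-alone regions stood close to a Foxa1 region without touching it. The nearest Foxa1 region of either time was a median of 1383 bp away. It was nearer than 200 bp for 1184 Foxa2-alone regions (14.9%), nearer than 1 kb for 3557 (44.8%, 43.7 to 45.9%) and at 100 kb or beyond for 166 (2.09%). Foxa1 of 6 months was nearer, with a median of 2382 bp, than Foxa1 of 2 weeks, with a median of 11613 bp, although the 2-week list was longer (53460 against 35630 regions). Within 1 kb there was a 6-month Foxa1 region only for 2251, a 2-week region only for 433 and both for 873. Of the 3124 with a 6-month Foxa1 region within 1 kb, 2010 (64.3%, 62.6 to 66.0%) had a neighbour that overlapped another Foxa2 region. These lay beside a site that both factors had in common. The like share over all 35630 Foxa1 regions of 6 months was not computed, so 64.3% is not read as particular to these neighbours. Of the Foxa2 regions, 14025 overlapped Foxa1 at 6 months only and 10190 at both times.

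**Figure D2:**
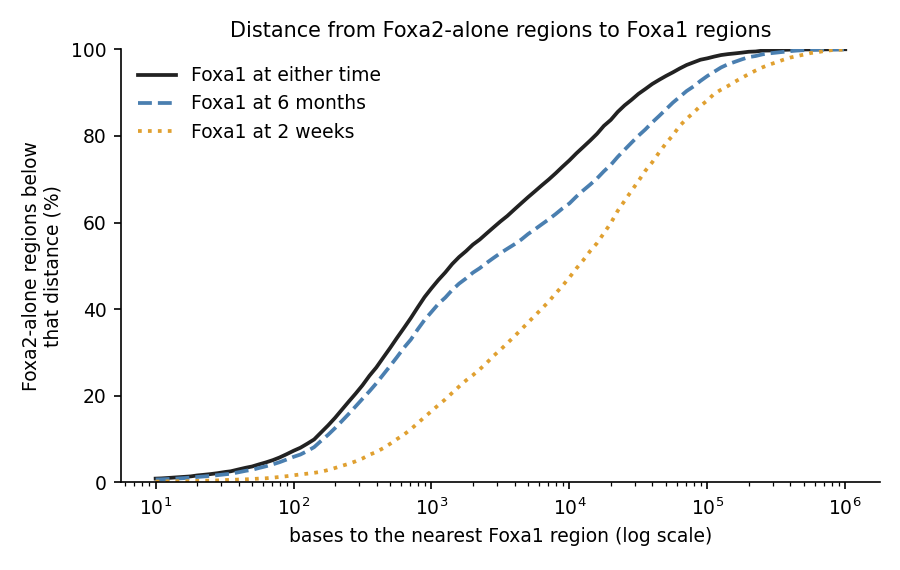
Curves give the percentage of the 7935 Foxa2-alone regions (y axis) whose nearest Foxa1 region lies below the distance on the x axis (bases, log scale). The dashed curve for Foxa1 at 6 months passes 39.4% at 1 kb and the dotted curve for 2 weeks 16.5%.

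Strength differed little with this distance except among the farthest regions. Foxa2-alone regions nearer than 1 kb to a Foxa1 region and those at 1 kb or beyond, 4378 in number, both had a median -log10 q of 3.01, the 2035 at 10 kb or beyond had 3.15, and the 166 at 100 kb or beyond had 3.58. At the edge of the rule, 9 Foxa2-alone regions directly abutted a Foxa1 region, with a -log10 q of 2.15 to 4.20 and a median of 3.01. Just across it, 42 Foxa2 regions shared 1 to 5 bases with one, with a -log10 q of 1.38 to 6.86 and a median of 2.88.

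Of these 166 regions farthest from Foxa1, 85 could be assigned to a gene. The most isolated was 790.2 kb from any Foxa1 region. The strongest inside a gene body lay in Mlip, which encodes a lamin-interacting protein (chr9:77272356-77272513; fold 4.80, -log10 q 7.58; 124 kb from Foxa1), and in the collagen gene Col19a1 (chr1:24443621-24444432; fold 4.38, -log10 q 6.15; 133 kb from Foxa1). These 2 genes were named after their values were seen.

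Along the chromosomes, Foxa2-alone regions were more often solitary than other Foxa2 regions. With gaps below 1 kb joined into chains, 4868 (61.3%, 60.3 to 62.4%) stood alone, 580 (7.31%) had only other Foxa2-alone regions in their chain and 2487 (31.3%) had Foxa2 regions with Foxa1. Of the other Foxa2 regions, 47.6% (47.0 to 48.2%) stood alone. Chains of Foxa2-alone regions only were short, with at most 3 regions. Their share of the Foxa2 list was even across chromosomes, from 21.1% on chromosome 19 to 24.0% on chromosome 12. The megabase with the most, which holds Chd7 (chr4:8000001-9000000), had 23 of 83 Foxa2 regions, and that holding Rere (chr4:150000001-151000000) had 20 of 75. Among the megabases with the most Foxa2-alone regions their share varied, from 16 of 83 (19.3%) at chr12:73000001-74000000 to 17 of 39 (43.6%) at chr3:34000001-35000000, which holds Sox2. The only Foxa2 region listed at 2 weeks (chr2:160365842-160366543; fold 6.52, -log10 q 11.7) was 493 kb from the nearest Foxa2-alone region, so the Foxa2 lists offer no earlier counterpart to them.

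In relation to genes, Foxa2-alone regions took a middle place. Within 1 kb of a gene start lay 337 of 7649, 4.41% (3.96 to 4.89%), a share counted over 18 chromosomes. That was above the 3.25% (2.96 to 3.56%) of Foxa2 regions with Foxa1 at 6 months only and below the 7.08% (6.58 to 7.60%) with Foxa1 at both times and the 7.55% (6.54 to 8.67%) with Foxa1 at 2 weeks only. A body of a protein-coding gene held 58.2% (57.1 to 59.3%), against 54.9%, 58.8% and 60.4% in the same order. More than 100 kb from any protein-coding gene lay 14.2% (13.4 to 14.9%), against 17.7%, 10.2% and 8.22%. The median distance to a start was 31.2 kb, against 35.5, 22.2 and 18.6 kb. Foxa2-alone regions and those with Foxa1 at 2 weeks only were close in strength. Their shares near starts and far from genes differed by more than the counting intervals, while the intervals of their shares in gene bodies overlapped. The cause of the difference was not tested. Among regions with a -log10 q of 2 to 5, the shares near starts were 4.42% for Foxa2-alone regions, 3.83% with Foxa1 at 6 months only, 7.36% with Foxa1 at both times and 7.19% with Foxa1 at 2 weeks only. There the intervals of the first pair, 3.88 to 5.00% and 3.37 to 4.35%, overlapped. At a -log10 q of 5 or more they did not, with 4.37% (3.15 to 5.88%) for Foxa2-alone regions and 2.63% (2.25 to 3.04%) with Foxa1 at 6 months only.

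**Figure D3:**
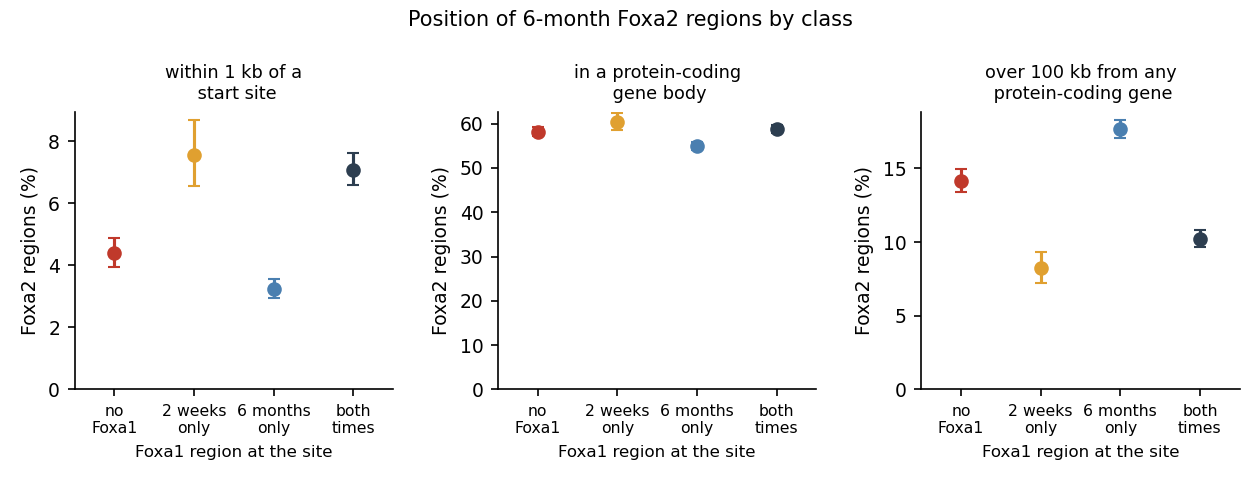
Points give the percentage of 6-month Foxa2 regions (y axes) within 1 kb of a gene start, inside a protein-coding gene body and more than 100 kb from any protein-coding gene, for the 4 classes by Foxa1 overlap (x axis), with 95% Clopper-Pearson bars. Foxa2-alone regions (red, left) lie between the classes at gene starts, with 4.41%, and far from genes, with 14.2%.

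A region was counted for each protein-coding gene with the summit inside its body, and where there was none, for the closest gene up to 100 kb away, which does not show which gene a region acts on. By this assignment 3676 of 20665 genes, 17.8%, had a Foxa2-alone region, 2248 of them only 1. There were 224 genes with at least 5 and 28 with at least 10. Of the 691 genes with at least 10 Foxa2 regions, the median share of Foxa2-alone regions was 21.4% (quartiles 14.3 and 30.8%), close to the 22.8% over all Foxa2 regions. In 20 of these genes the share was at least 50%, and in 43 it was 0.

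The genes with the most Foxa2-alone regions were long genes with many Foxa2 regions. Chd7, which encodes a nucleosome remodeller (chr4:8690402-8868449), had 22 of 73 Foxa2 regions, 16 of them nearer than 1 kb to a Foxa1 region. Regions of the strengths found at Chd7 would hold 20.6 Foxa2-alone regions at the shares of those 10 parts, so its number was close to that of the list as a whole. Cacna2d3, an auxiliary calcium channel subunit gene (chr14:28904943-29722775), had 20 of 62, against 14.9 given the strengths. Cdh13, which encodes a cadherin anchored in the membrane without a cytoplasmic tail (chr8:118140017-119324929), had 18 of 45, against 10.8. These genes were picked by their number of Foxa2-alone regions, so an excess over the figures given the strengths is no test. The neural gene Auts2 and the phosphodiesterase gene Pde4d had 17 each, of 51 and 56 Foxa2 regions. Rere, a nuclear receptor coregulator gene, had 15 of 50 and Sox5 15 of 42. The adhesion genes Sdk1 and Tenm2 had 14 of 49 and 14 of 40, and the GTPase-activating protein gene Arhgap24 had 14 of 35. The E-protein gene Tcf12 had 13 of 47, the protocadherin-like gene Fat3 13 of 36, the forkhead gene Foxn3 12 of 37 and the cell cycle kinase gene Cdk6 12 of 31. After joining of regions with gaps below 1 kb, Chd7 had 9 of 34, Cacna2d3 11 of 38, Cdh13 11 of 29, Rere 9 of 27, Sdk1 8 of 30, Arhgap24 6 of 21, Tcf12 8 of 29 and Cdk6 7 of 24.

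Among genes with at least 10 Foxa2 regions, the Foxa2-alone share was highest at Cacna1c, the pore subunit of an L-type calcium channel (chr6:118587240-119197384). It had 13 Foxa2-alone regions of 20, 65.0%, where the strengths would give 5.48. The gene was picked by this share, so an excess over that figure follows from the choice and is no test. The strongest (chr6:118755848-118756793; fold 5.63, -log10 q 10.7) lay 0.148 kb from a 6-month Foxa1 region and 41.2 kb from a 2-week region. The other 12 had a -log10 q of at most 4.82, and 7 of the 13 lay nearer than 1 kb to a Foxa1 region. After joining, 6 of 12 sites at Cacna1c had no Foxa1. Sgip1, an endocytic adaptor gene (chr4:102741302-102977426), followed with 9 of 14, 64.3%, and 4 of 8 after joining. At Grid1, a glutamate receptor gene of the delta class, 7 of 11 (63.6%) were Foxa2-alone regions, and 6 of these stood at 1 kb or beyond from any Foxa1 region. The strongest of them (chr14:35497391-35497675; fold 4.17, -log10 q 5.47) was 225 kb from the nearest Foxa1 region. Sema5a, which encodes a transmembrane semaphorin, also had 7 of 11, and 5 of these stood at 1 kb or beyond. Abtb2 had 6 of 10, the receptor phosphatase gene Ptprd 8 of 14, Tmem178b 8 of 14, and Nos1ap, Abr and Rbbp8 6 of 11 each. Myt1l, a zinc finger gene of neuronal differentiation, had 8 of 15.

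At the other end stood genes with many Foxa2 regions and none without Foxa1. Slc39a11, a zinc transporter gene, had 18 Foxa2 regions, and the neuronal splicing factor gene Rbfox3 had 16, all of them with Foxa1 at 6 months only. Setd4 had 16, and Fam107b and the diacylglycerol kinase gene Dgkg had 15 each. The strengths of the regions at these 5 genes would give 2.74 to 4.42 Foxa2-alone regions. They were picked by their share, so a deficit follows from the choice, and 43 of the 691 genes had no Foxa2-alone region. Foxp1, a forkhead gene with 79 Foxa2 regions, had 11 Foxa2-alone regions against 21.4 given their strengths.

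**Figure D4:**
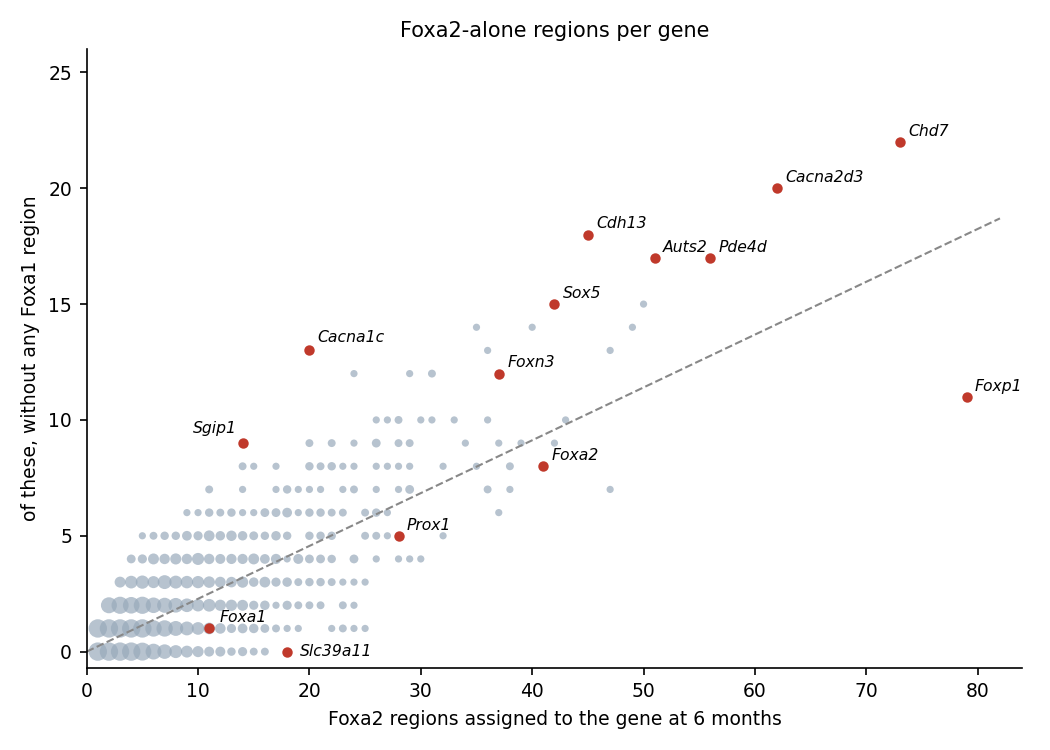
Each point is a combination of the number of 6-month Foxa2 regions assigned to a gene (x axis) and the number of these without any Foxa1 region (y axis), larger where more genes share it, with named genes in red. The dashed line marks the share over all genes, 22.8%; Cacna1c with 13 of 20 and Sgip1 with 9 of 14 stand above it, and Foxp1 with 11 of 79 below.

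Of the genes of the factors themselves, Foxa2 (chr2:148042877-148046969) had 8 Foxa2-alone regions among 41 Foxa2 regions, against 9.77 given their strengths, all outside its body and 12.5 to 76.7 kb from it. The strongest (chr2:148088221-148088638; fold 4.37, -log10 q 6.15) lay 2.43 kb from a 6-month Foxa1 region and 102 kb from a 2-week region. Foxa1 (chr12:57540628-57548029) had 1 of 11, within its body (chr12:57547781-57548006; fold 3.13, -log10 q 2.83), with Foxa1 regions 0.162 kb away at 2 weeks and 1.00 kb away at 6 months. The homeobox gene Prox1 had 5 of 28, all nearer than 1 kb to a Foxa1 region.

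For 301 genes, 8.19% of the 3676 with a Foxa2-alone region, such regions were the only Foxa regions assigned. No Foxa1 region was assigned to these genes at either time, which does not mean that none lay nearby. Over all 20665 protein-coding genes, 11671 had a Foxa1 region assigned at either time. Genes without one were thus more common over all genes than among those with a Foxa2-alone region. Most of the 301 had 1 Foxa2-alone region, and 5 genes had at least 3. They are Tspyl4, a nucleosome assembly family gene (5), the T-cell receptor zeta chain gene Cd247, the follicle-stimulating hormone beta subunit gene Fshb, the heparan sulfate enzyme gene Ndst3 and Tmtc4 (3 each), and were named after their values were seen. At Tspyl4 the 5 regions stood within or just beside the gene (chr10:34296023-34301143) with a -log10 q of 1.48 to 4.19. They lay 11.0 to 14.6 kb from the nearest Foxa1 region, those at Cd247 11.5 to 44.3 kb and those at Tmtc4 20.9 to 161 kb. At Fshb 3 regions lay side by side 12.8 to 13.7 kb from the gene (-log10 q 2.47, 4.19 and 4.19), 83.9 to 84.9 kb from the nearest Foxa1 region. At Ndst3 they lay 88.2 to 186 kb from the nearest Foxa1 region.

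Among 17 gene lists, Foxa2-alone regions made up a larger part of the Foxa2 regions at neural genes than at all genes, where the share was 22.8% of 30187 pairs of gene and region. At ion channel genes they made up 110 of 357, 30.8% (26.1 to 35.9%), among them Cacna2d3, Cacna1c and Kcnb2 (7 of 18). At transmitter receptors they made up 35 of 114, 30.7%, with an interval (22.4 to 40.0%) that reached the share of all genes, and with Grid1, Grin2b (4 of 8), Grm8 (4 of 15) and Chrm3 (3 of 10). Axon guidance genes had 78 of 262, 29.8% (24.3 to 35.7%), among them the Slit receptor gene Robo1 (8 of 20), Sema5a, the netrin receptor gene Dcc (6 of 23) and the semaphorin receptor gene Nrp1 (6 of 25). Adhesion and synapse organising genes had 168 of 593, 28.3% (24.7 to 32.1%). All 31 of the list's genes with a Foxa2 region had a Foxa2-alone one, against 48.2% of all genes with a Foxa2 region. This count depends on the number of Foxa2 regions per gene, which was not accounted for. Given the strengths of their regions, these 4 lists would have shares of 22.3 to 23.3%.

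This difference was seen among weak regions. Below a -log10 q of 5, Foxa2-alone regions made up 47.0% of Foxa2 regions at ion channel genes, 54.1% at transmitter receptors, 48.3% at axon guidance genes and 44.3% at adhesion genes, against 34.9% over all genes. At a -log10 q of 5 or more, few Foxa2-alone regions were left. In the same order the shares were 6.34% (9 of 142), 3.77% (2 of 53), 4.50% (5 of 111) and 7.72% (20 of 259). Over all genes the share was 6.59% (849 of 12885), and only the adhesion list stood above it. With such small numbers, whether the lists differ from all genes at this strength cannot be told. Genes of these lists were long, with median bodies of 366 to 969 kb against 42.8 kb for all genes. In all gene bodies of 500 kb or more, Foxa2-alone regions made up 27.2% (25.6 to 28.9%) of Foxa2 regions, in those of 200 to 500 kb 24.2%, and in shorter ones 20.9 to 22.5%. The part of gene length in the shares of the neural lists was not tested. Regions of 1 gene are not independent of each other, which the intervals ignore.

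Lists tied to the neuroendocrine state itself lay near the share of all genes. Lineage regulators had 34 of 137, 24.8% (17.8 to 32.9%), led by Myt1l, Prox1, the related zinc finger gene St18 (4 of 21) and the stem cell factor gene Sox2 (3 of 11). Genes of regulated exocytosis had 32 of 146, 21.9% (15.5 to 29.5%), among them Snap25, a membrane fusion protein gene (10 of 28), the calcium sensor gene Syt1 (9 of 34), Cadps (3 of 10) and the prohormone convertase gene Pcsk1 (2 of 9). Chromatin regulators had 62 of 250, 24.8%, with Chd7, Auts2, the histone deacetylase gene Hdac9 (6 of 19) and Mllt3 (5 of 12). Receptor tyrosine kinases and ErbB ligands had 28 of 119, 23.5%, with Nrg3 (9 of 28), Nrg1 (5 of 13), Erbb4 (4 of 7) and Fgfr2 (3 of 18). Here a difference from all genes was within counting error.

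Epithelial genes had smaller shares. Epithelial and endodermal transcription factors had 22 of 148, 14.9% (9.56 to 21.6%), against 23.2% given the strengths, with Tcf7l1 (3 of 20), Nfia (3 of 8), Grhl2 (2 of 18) and Klf5 (2 of 16). The luminal and androgen response list had 8 of 66, 12.1% (5.38 to 22.5%), against 20.4% given the strengths, among them the transporter gene Abcc4 (4 of 21), Dpp4 (2 of 11) and Steap4 (1 of 1). Basal epithelium had 6 of 42, 14.3% (5.43 to 28.5%), with Itga6 (2 of 16), Cdh3 (2 of 5), Dst (1 of 12) and Trp63 (1 of 5). The mesenchymal transition list had 6 of 39, 15.4% (5.86 to 30.5%), with Zeb2 (3 of 4), Twist1 (1 of 1), Cdh1 (1 of 9) and Cdh2 (1 of 2). Forkhead genes had 36 of 201, 17.9% (12.9 to 23.9%), against 25.8% given the strengths, with Foxn3, Foxp1, Foxa2 and Foxa1 among them. The intervals of the basal, mesenchymal and forkhead lists included the share of all genes, while those of the epithelial factors and, narrowly, the luminal list lay below it. The interval of the luminal list included the 20.4% that its regions' strengths would give.

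Markers of other cell types that a dissected gland can hold had 11 Foxa2-alone regions in all. The 10 immune markers, and the 11 of seminal vesicle and urothelium, had no Foxa2 region at all. Of all protein-coding genes, 36.9% had one. The T-cell receptor gene Cd247, which is outside the immune list, had 3 Foxa2-alone regions. Stromal markers had 4 of 11, 36.4% (10.9 to 69.2%), the highest share of the lists with the widest interval, from the smooth muscle actin gene Acta2 (2 of 3), the matrix gene Dcn (1 of 4) and the intermediate filament gene Des (1 of 3), and 0 of 4 when gene bodies were widened by 10 kb only. Endothelial markers had 7 of 42, 16.7% (6.97 to 31.4%), from the clotting factor gene Vwf (5 of 17) and the ETS factor gene Erg (2 of 9). These lists say where regions lie and not which cells they came from.

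**Figure D5:**
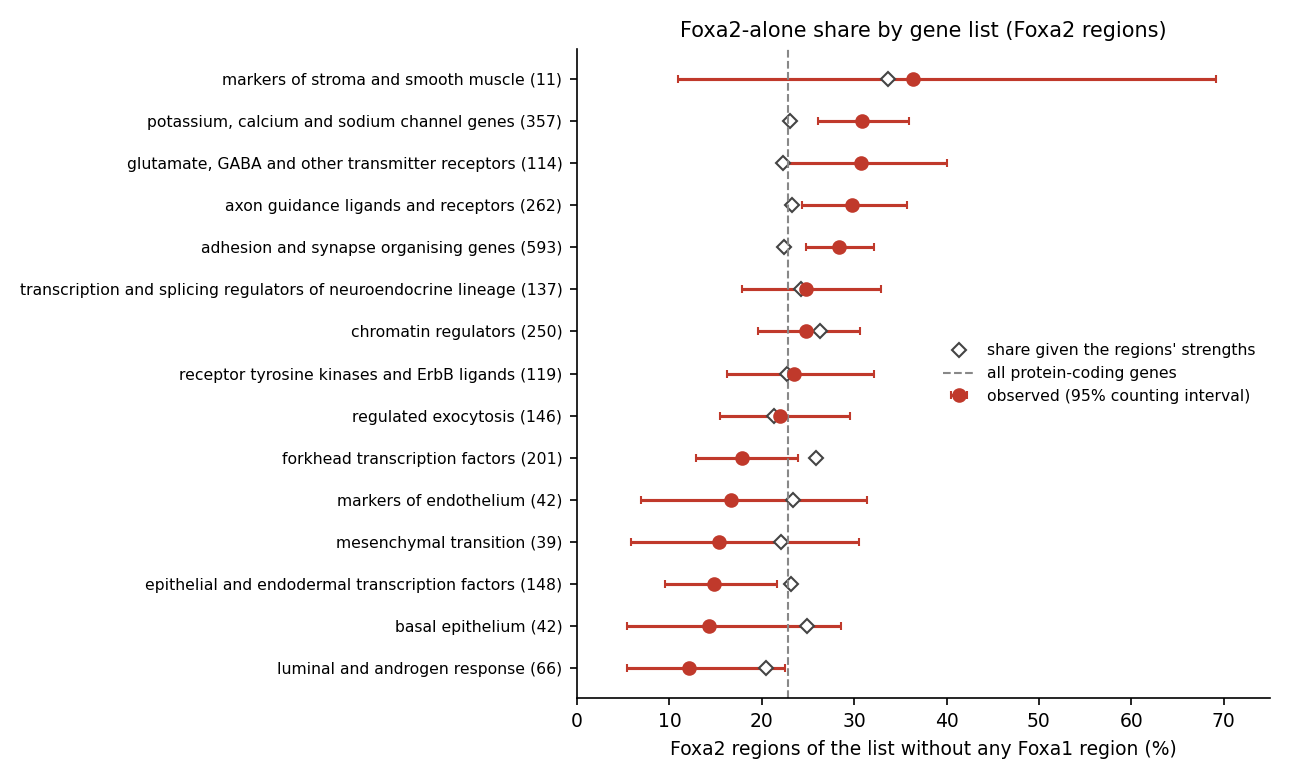
Red points give the percentage of each list's 6-month Foxa2 regions (number in parentheses) that had no Foxa1 region (x axis), with 95% Clopper-Pearson bars; open diamonds give the percentage that the strengths of those regions would give, and the dashed line the share over all genes. Ion channel, transmitter receptor, axon guidance and adhesion lists lie at 28.3 to 30.8%, and the luminal list at 12.1%.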

How the data were processed

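The members and gene lists were chosen with earlier results of these data known. The submitters' processing notes name MACS2 2.1.1, Bowtie2, HOMER, Trim Galore 0.5.0, deepTools 3.2.1, bedtools 2.25.0 and DiffBind 2.12.0 and build mm10. Parameters and the use of the input libraries are not given in the sources. The deposited lists hold 1 library each and give each region the authors' fold enrichment (a ratio over local background), their -log10 p-value and -log10 q-value, and a score, in these files 10 times the -log10 q with its decimals dropped. The smallest -log10 q corresponds to a q-value of 0.05, so absence from a list depends on occupancy, enrichment and depth, and depth is not given. The fragment heights given in the results were worked back from fold and p-value.

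Overlaps, distances, chains and gene assignments were computed with Python 3.11.15, numpy 2.4.6 and pandas 2.3.3, intervals with scipy 1.17.1 (Clopper-Pearson, 95%) and figures with matplotlib 3.10.9. Overlaps were checked against bedtools 2.31.1. On simulated intervals, 2036 of 2036 planted overlaps were recovered and 0 of 4964 false ones were called. For 500 regions drawn from the Foxa2 list, 500 gene assignments matched a direct search. The share given the strengths is what a set of regions would have if each had the Foxa2-alone share of its part of the list when the list is cut into 10 by -log10 q.

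Gene bodies came from a RefSeq table of GRCm38.p6 without exons, so exonic, intronic and untranslated positions were not distinguished. Gene starts came from RefSeq promoter windows on 18 chromosomes, 31396 windows of 25748 genes, so they include alternative starts inside gene bodies. A genome sequence was not used here. The planned 200 bp windows at the summits were replaced by promoter windows, in which 17 motifs were searched.

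Named genes were, by rule, those of the 10 strongest Foxa2-alone regions; the 15 genes with the most; the 10 with the highest and 5 with the lowest share among genes with at least 10 Foxa2 regions; up to 4 per list with the most; Foxa1 and Foxa2; and the strongest regions at promoters. Some genes that this rule names are not reported here. Alternatives were other gaps and overlaps, thresholds of 5 for -log10 q and fold, other gene windows, and joining regions less than 1 kb apart. With 1 library per group no test was made.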

Additional observations from a re-analysis of the deposited data

How the results depend on the processing

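The number of Foxa2-alone regions depended on how overlap was defined. It was 7935 as reported, 6751 with a gap of at least 200 bp and 7976 with the chromosomes X and Y. It was 4378 with a gap of at least 1 kb, 2035 with a gap of at least 10 kb, 14476 when only summits within 200 bp counted as overlap, 18407 with a reciprocal overlap of 50%, and 14834 when only Foxa1 regions that reached a -log10 q of 5 counted. It was 964 among the 15013 Foxa2 regions that reached a -log10 q of 5 and 57 among the 7003 with a fold of at least 5. With a gap of at least 1 kb the share in gene bodies was 56.9% and the share within 1 kb of a gene start 5.21%, while the median -log10 q stayed at 3.01 and the forkhead share of promoter windows was 28.3%. With chains of gaps below 10 kb, 33.5% stood alone, against 30.0% of the other Foxa2 regions, a smaller gap than below 1 kb. Genes with a Foxa2-alone region numbered 3560 with gene bodies widened by 10 kb, 2865 with close regions joined and 1432 within 5 kb of a gene end. Joined, 5129 of 24476 sites (21.0%) had no Foxa1. Of 82 named genes, 19, 31 and 73 changed by more than 1.5 times or to 0 with widened bodies, with joining and within 5 kb of an end.

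Where Foxa2 regions had to reach a -log10 q of 5, the Foxa2-alone share was 6.59% over all genes, 7.81% for forkhead genes, 6.0% for neuroendocrine regulators, 7.72% for adhesion, 4.50% for axon guidance, 6.34% for ion channels, 3.77% for transmitter receptors, 8.96% for exocytosis, 5.08% for epithelial factors, 7.41% for chromatin regulators, 14.3% for receptor kinases, and 0.0% for the luminal, stromal and endothelial lists. Below 5 it was 34.9% over all genes, 35.6% for neuroendocrine regulators, 44.3% for adhesion, 48.3% for axon guidance, 47.0% for ion channels, 54.1% for transmitter receptors, 32.9% for exocytosis, 25.0% for the luminal list and 33.1% for chromatin regulators. With widened bodies the stromal share was 0.0%. In these splits the share of all genes moved with the lists; the cause of the changes was not tested.

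No paired analysis was possible because each group held 1 library and the labels give no shared replicate numbers. The planned 100 bp motif window was not run, since no genome sequence was used here. The gap of 10 kb, the lists below a -log10 q of 5 and positions at a -log10 q of 2 to 5 were chosen after seeing the data. Depth is unknown from the lists, so a Foxa1 region below threshold at a Foxa2-alone site was not detectable here.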

Other observations

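Foxa2-alone regions overlapped 3 of 919 annotated microRNA hairpins, those of Mir6337 (chr2:65364296-65364400; -log10 q 1.95), Mir5108 (chr10:61774737-61774821; -log10 q 2.56) and Mir6391 (chr14:118592369-118592472; -log10 q 2.27). All 3 were weak regions.

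The longest runs made of Foxa2-alone regions only, with gaps below 1 kb, held 3 regions each, at chr11:63496196-63497374, chr6:40165209-40166700 and chr9:34158499-34159681, with a highest -log10 q of 3.91, 2.40 and 4.20. With gaps below 10 kb the longest was the run of 5 at Tspyl4, followed by runs of 4 at chr8:33763778-33768546 (highest -log10 q 6.86) and chr6:144169280-144176651 (3.90). Of the 7 megabases with at least 17 Foxa2-alone regions, those with the highest shares beside the one holding Sox2 were chr3:86000001-87000000 with 17 of 43 (39.5%) and chr5:132000001-133000000 with 19 of 52 (36.5%).

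In the Foxa1 lists the same reading of fold and p-value gave piles in steps of 0.747 at 2 weeks and 0.883 at 6 months, against steps of 1 in the Foxa2 list of 6 months. Piles could be recovered for 64.4% and 39.1% of the Foxa1 regions and 44.5% of the Foxa2 regions, and the lowest among these were 17, 16 and 12 fragments. The flat background was 5.74, 5.61 and 3.79 fragments. Among recovered piles, the lowest that was called thus held more fragments in both Foxa1 lists than in the Foxa2 list. Its part in the absence of Foxa1 regions was not tested.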
